A study of Mus musculus with 4 samples.

Results

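Described here are 34 genes of glycolysis and of the response to low oxygen, out of the 32285 genes in each count matrix. They were chosen as listed symbols, and all 34 were found in all 4 matrices. The list holds 16 genes of glucose uptake, glycolysis and lactate export, called glycolysis members below, and 18 genes known to respond to hypoxia, called hypoxia members. Both rows named Aldoa were summed.

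The series profiled single leukocytes from male mice of the C57BL/6 background, aged 8 weeks, on day 18 after subcutaneous implantation of B16-F10, a melanoma line from that strain. It held 4 libraries, 1 per genotype and organ: wild-type tumour, Ndufa4-deficient tumour, wild-type spleen and Ndufa4-deficient spleen. Wild-type is written WT and Ndufa4-deficient KO. All 4 groups carried the melanoma. The tumour sort took cells with CD45, a marker of all leukocytes, and the spleen sort took those that also carried CD11b, a myeloid marker. Each library was a pool of equal cell numbers from 3 mice per the design text, or 3 to 4 per the protocol. The labels describe the KO mice only as Ndufa4-deficient, and a deficiency of the whole animal, of leukocytes only or of single cell types is not told apart by them.

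When oxygen is scarce, prolyl hydroxylases stop marking the alpha subunits of hypoxia-inducible factors (HIF) for destruction. HIF then pairs with ARNT and raises transcription of genes for glucose transport, glycolysis, vessel growth, mitophagy and lipid storage, and of some of the hydroxylases that restrain it. Macrophages and neutrophils also use glycolysis and HIF during activation, and solid tumours hold poorly oxygenated areas where both cell types gather. Ndufa4 encodes a subunit of complex IV, also called cytochrome c oxidase, the respiratory enzyme that consumes oxygen.

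The libraries held 4798 to 8107 barcodes, of which 4019 WT tumour, 4656 KO tumour, 7530 WT spleen and 6952 KO spleen cells were kept. Median depth was 7502 and 10534 UMIs (unique molecular identifiers) per cell in the WT and KO tumour, and 4930.5 and 4465 in the spleen. Any pair of libraries shared 6 to 22 barcodes. Cells were given a class by marker genes, none of which is a member, so every class name below means cells with the markers of that type. In the tumour, Ndufa4 lay between 64.2 and 392 CPM (UMIs of a gene scaled to 1000000 UMIs of its class) in the compared WT classes and between 0.694 and 20.3 CPM in the KO classes. In the spleen the ranges were 71.7 to 364 CPM in WT and 0 to 3.86 CPM in KO. Melanoma-gated cells, of which 46 and 18 were kept, had 1709 CPM of Ndufa4 in the WT and 1294 CPM in the KO library.

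A ratio is given as log2 of KO over WT with an exact 95% interval in square brackets, which covers counting error only. A gene counts as measured in a comparison with at least 100 UMIs over both libraries, and as lower or higher at a fold of at least 1.5. With 1 pooled library per group no test between groups was possible, so no p-value is given and no difference has a replicate check. The share of all measured genes past the same fold is given beside each count of members as its background.

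Promoters are shown for the 6 members with the lowest KO ratio in tumour phagocytes among those with an entry in the RefSeq promoter table (build GRCm38.p6), since these genes differed together between the genotypes. Each is the 250 bases before the first listed start, 5′ to 3′ on the gene's strand: Adm (ENSMUSG00000030790, chr7:110627407-110627656, plus strand), Ero1l (ENSMUSG00000021831, chr14:45318573-45318822, minus strand), listed there as Ero1a, Egln3 (ENSMUSG00000035105, chr12:54203875-54204124, minus strand), Hilpda (ENSMUSG00000043421, chr6:29272238-29272487, plus strand), Ddit4 (ENSMUSG00000020108, chr10:59951771-59952020, minus strand) and Mxi1 (ENSMUSG00000025025, chr19:53310256-53310505, plus strand). Capitals mark ACGTG and GCGTG, the core letters of HIF binding sites, on either strand.
Adm: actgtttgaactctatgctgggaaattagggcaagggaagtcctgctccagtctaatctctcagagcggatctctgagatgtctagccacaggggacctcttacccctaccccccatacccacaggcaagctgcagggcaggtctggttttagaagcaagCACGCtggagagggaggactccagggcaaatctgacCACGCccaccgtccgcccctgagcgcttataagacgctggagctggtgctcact
Ero1l: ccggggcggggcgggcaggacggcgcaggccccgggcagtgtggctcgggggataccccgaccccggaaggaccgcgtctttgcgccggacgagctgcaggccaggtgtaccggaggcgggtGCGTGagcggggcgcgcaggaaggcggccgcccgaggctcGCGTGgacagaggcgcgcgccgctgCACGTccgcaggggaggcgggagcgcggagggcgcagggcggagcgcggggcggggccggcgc
Egln3: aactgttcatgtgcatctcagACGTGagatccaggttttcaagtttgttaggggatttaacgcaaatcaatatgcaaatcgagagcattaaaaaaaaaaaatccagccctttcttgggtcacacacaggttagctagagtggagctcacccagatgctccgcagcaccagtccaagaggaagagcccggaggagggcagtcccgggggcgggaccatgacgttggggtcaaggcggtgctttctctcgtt
Hilpda: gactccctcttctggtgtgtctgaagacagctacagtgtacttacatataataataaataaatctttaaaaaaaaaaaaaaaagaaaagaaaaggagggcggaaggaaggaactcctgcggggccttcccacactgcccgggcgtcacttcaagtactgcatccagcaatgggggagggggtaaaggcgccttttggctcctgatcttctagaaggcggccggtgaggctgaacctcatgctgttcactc
Ddit4: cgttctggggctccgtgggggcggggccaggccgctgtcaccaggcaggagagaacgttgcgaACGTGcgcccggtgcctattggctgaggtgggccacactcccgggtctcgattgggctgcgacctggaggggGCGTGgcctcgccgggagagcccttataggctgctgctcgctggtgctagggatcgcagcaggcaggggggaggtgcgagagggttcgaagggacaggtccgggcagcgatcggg
Mxi1: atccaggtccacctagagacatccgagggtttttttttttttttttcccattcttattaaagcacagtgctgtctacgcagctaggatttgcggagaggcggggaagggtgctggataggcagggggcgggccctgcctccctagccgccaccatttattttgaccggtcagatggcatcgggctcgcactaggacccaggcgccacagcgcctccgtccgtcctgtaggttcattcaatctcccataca

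Adm held 2 such cores, Ero1l 3, Egln3 1 and Ddit4 2, whereas the Hilpda and Mxi1 windows held none. Of the 33 members with an entry, 24 (72.7%) had either core in this window, against 38.6% of all 27018 promoters of the same length. ACGTG alone was in 16 of 33 members (48.5%) and in 16.6% of all promoters, and GCGTG in 17 (51.5%) and 28.2%. The list was made of genes known for glycolysis or the response to hypoxia, so this excess says nothing about the KO. Members lower in KO phagocytes had either core in 13 of 17 windows (76.5%) and the other members in 11 of 16 (68.8%). Fam162a, a mitochondrial protein, had 6 cores, and Bnip3, a mitophagy receptor, and Ldha, the lactate-forming dehydrogenase, had 5 each. A core in these windows is a match of letters and not a measured site, and windows of the Vegfa and Mif genes also held none. Only the first listed start was read, while 2 starts are listed for Hilpda, 3 for Mxi1 and 2 for Vegfa. The windows before the later starts were not read. Ndrg1 is not among the 33.

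In tumour mononuclear phagocytes, the monocytes and macrophages pooled (1232 WT and 974 KO cells), 33 of the 34 members were measured. In KO, 18 of them were lower, where 9.17% of all measured genes were, and 0 were higher, where 8.57% of all genes were. Their median log2 ratio was −0.68, beside −0.004 over all 9896 measured genes, and 32 of the 33 lay below 0 with intervals clear of it. The hypoxia members were lower more widely, 13 of 18 with a median of −0.89, than the glycolysis members, 5 of 15 with a median of −0.54. Median depth was alike in these cells, at 13934 UMIs in WT and 13652.5 in KO, and the median mitochondrial share was 2.80% and 2.98%. Pfkm, the muscle form of phosphofructokinase, had 23 WT and 30 KO UMIs and was not measured.

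Glucose enters through Slc2a1 (GLUT1), which stood at 236 CPM in WT against 120.0 in KO, a log2 ratio of −0.98 [−1.06, −0.90]. Of the enzymes, enolase Eno1 had 797 CPM in WT against 453 in KO (−0.81 [−0.86, −0.77]). Phosphoglycerate kinase Pgk1 had 887 CPM in WT against 549 in KO (−0.69 [−0.73, −0.65]). Phosphoglycerate mutase Pgam1 had 778 CPM in WT against 487 in KO (−0.68 [−0.72, −0.64]). These 4 genes stood at 50.8% to 62.6% of their WT level. Ldha lay just past the fold, at 1045 CPM in WT against 696 in KO (−0.59 [−0.62, −0.55]), and the aldolase Aldoa just short of it, at 1139 CPM in WT against 764 in KO (−0.58 [−0.61, −0.54]). Gapdh, often taken as a constant reference gene, also lay short of it, with 3189 CPM in WT against 2159 in KO (−0.56 [−0.58, −0.54]).

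Several glycolysis members differed little. Hexokinase Hk2, which traps glucose in the cell, had 178 CPM in WT against 166 in KO (−0.10 [−0.17, −0.02]). The lactate exporter Slc16a3 had 192 CPM in WT against 167 in KO (−0.20 [−0.27, −0.12]). The platelet form of phosphofructokinase, Pfkp, was the single measured member above 0, with 183 CPM in WT against 222 in KO (0.28 [0.21, 0.34]). The remaining glycolysis members, Tpi1, Gpi1, Pkm, Pfkl and Hk1, ran from −0.54 to −0.22. The enzymes of the pathway thus differed by unequal amounts, with enolase lowest and Pfkp highest.

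Among regulators of oxygen sensing, the HIF prolyl hydroxylase Egln3, itself a HIF target, had 136 CPM in WT against 47.1 in KO (−1.53 [−1.66, −1.41]). The main hydroxylase Egln1 had 128 CPM in WT against 92.8 in KO (−0.47 [−0.56, −0.37]), short of the fold. Mxi1, an antagonist of MYC, had 160.2 CPM in WT against 71.02 in KO (−1.17 [−1.28, −1.07]). In KO, Egln3 stood at 34.6% and Mxi1 at 44.3% of the WT level, while Egln1 stood at 72.4%. Ankrd37, an ankyrin repeat protein known as a HIF target, had 78.5 CPM in WT against 44.7 in KO (−0.81 [−0.95, −0.68]). The histone demethylase gene Kdm3a had 41.9 CPM in WT against 33.6 in KO (−0.32 [−0.48, −0.16]).

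Secreted, stress and storage genes included the member with the largest ratio. That was Adm, which encodes the vasodilator peptide adrenomedullin, with 20.4 CPM in WT against 4.87 in KO (−2.06 [−2.45, −1.70]), from 399 and 71 UMIs. Ero1l, the endoplasmic reticulum oxidase that forms disulfide bonds, had 451 CPM in WT against 149 in KO (−1.60 [−1.67, −1.53]). Hilpda, a lipid droplet protein that slows fat breakdown, had 436 CPM in WT against 154 in KO (−1.50 [−1.57, −1.44]). These 3 stood at 23.9% to 35.3% of their WT level. Ddit4, an inhibitor of the growth regulator mTORC1, had 58.97 CPM in WT against 24.4 in KO (−1.27 [−1.45, −1.10]). The stress gene Ndrg1 had 203 CPM in WT against 90.3 in KO (−1.17 [−1.26, −1.08]). The vessel growth factor Vegfa had 201 CPM in WT against 102 in KO (−0.97 [−1.06, −0.88]). The cytokine Mif had 844 CPM in WT against 521 in KO (−0.70 [−0.74, −0.66]).

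Mitochondrial members and the rest of the list follow. Bnip3 had 301 CPM in WT against 149.9 in KO (−1.005 [−1.08, −0.93]). Fam162a had 159.6 CPM in WT against 99.2 in KO (−0.69 [−0.78, −0.60]). Pdk1, the kinase that keeps pyruvate out of the mitochondrial citric acid cycle, had 46.7 CPM in WT against 29.2 in KO (−0.68 [−0.85, −0.51]). Higd1a, a small protein of the respiratory chain membrane, lay short of the fold at −0.32, as did the collagen hydroxylase subunit P4ha1 at −0.53 and Pfkfb3, which makes the activator of phosphofructokinase, at −0.32.

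**Figure D1:**
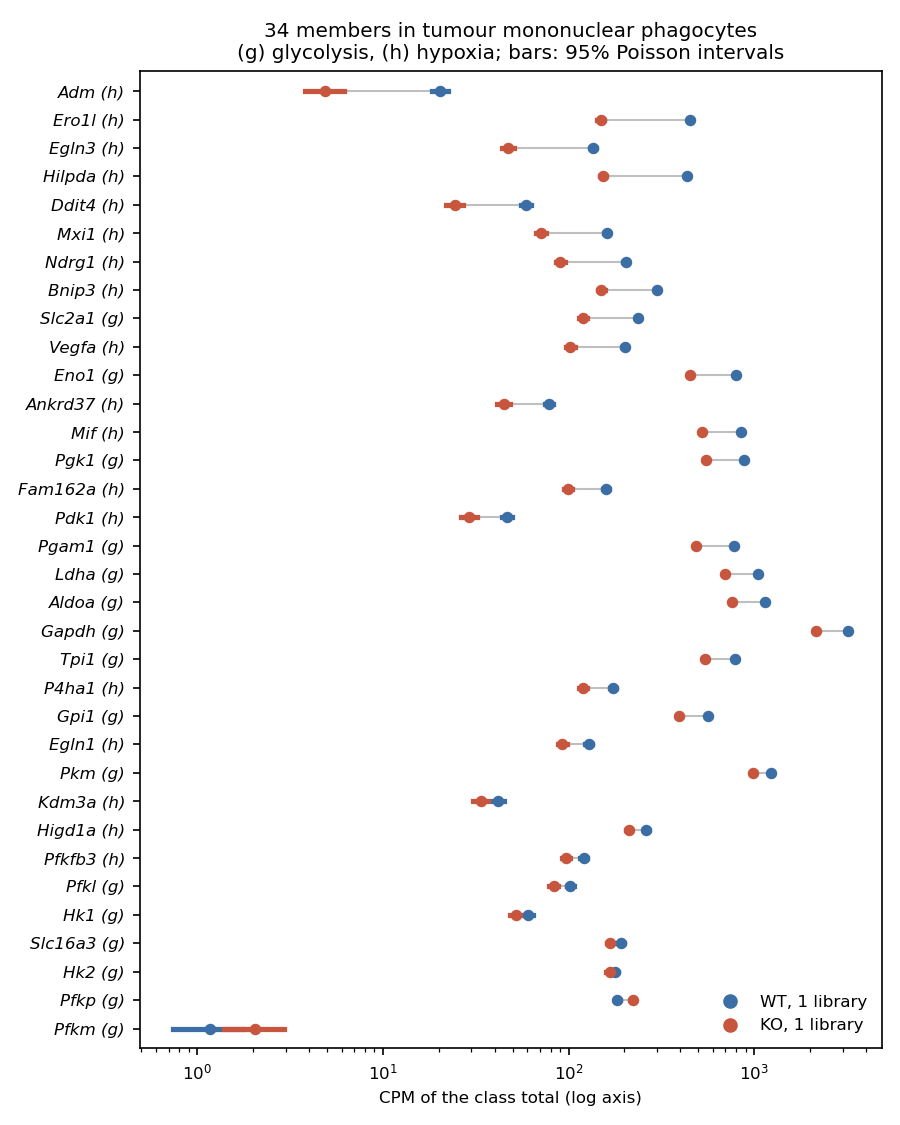
Level of each member in tumour mononuclear phagocytes, in CPM of the class total on a log axis, with 1 point per library (blue WT, red KO) and exact 95% Poisson intervals as bars. The KO point lies left of the WT point for 32 of the 33 measured members, farthest for Adm, Ero1l, Egln3 and Hilpda, and right of it for Pfkp.

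Markers of other cell types differed between the same cells. Summed neutrophil markers, all 8 of them detected, stood at 607 CPM in WT against 219 in KO phagocytes, and WT tumour neutrophils were rich in the hypoxia members (below). Under a stricter gate the same sum was 328 and 144 CPM, and the count of lower members stayed within 1.5 times of 18. When the neutrophil share these markers give, 0.911% of phagocyte UMIs in WT and 0.294% in KO, was subtracted with the neutrophils' own profile, 17 members were lower, 0 were higher and the median was −0.67. T cell markers stood at 18.8 and 56.6 CPM, natural killer (NK) cell markers at 7.81 and 32.9 CPM, and platelet markers at 82.0 and 3.02 CPM, and their part in the result was not tested. Melanoma markers stood at 30.7 and 33.6 CPM.

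The pooled ratio combines the level within each kind of phagocyte with the mix of kinds. Cells were therefore divided by their leading marker into Arg1, Cxcl9 and C1q macrophages, classical and non-classical monocytes, and 29 WT and 11 KO cells led by Ccl8 or Vcam1, too few to compare. Summed macrophage markers were 11800 CPM in WT against 7020 in KO phagocytes, and monocyte markers 3250 and 6500 CPM. The gates rest on genes that can themselves differ between the libraries, so the sizes of the subsets serve here as weights only. Arg1 macrophages were 20.1% of WT and 5.24% of KO phagocytes and held 60.1% of the WT UMIs of Vegfa, 59.8% of Egln3, 59.4% of Adm and 57.5% of Hilpda. In KO they held 24.2%, 28.7%, 19.7% and 30.7% of the same genes. Of Hk2, by contrast, they held 28.1% in WT and 9.15% in KO.

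With the KO subsets weighted to the WT mix, 7 of the 33 members were lower, where 6.46% of all genes were, and 0 were higher, where 6.07% of all genes were. The median was −0.68 before and −0.25 after weighting, and all 33 members came nearer to 0, with 29 still below it. The 7 were all hypoxia members, namely Adm (−1.27), Ero1l (−1.02), Egln3 (−0.80), Ddit4 (−0.77), Ndrg1 (−0.68), Hilpda (−0.66) and Mxi1 (−0.65). Vegfa went from −0.97 to −0.37, Bnip3 from −1.005 to −0.41 and Mif from −0.70 to −0.21. Hk2, Slc16a3 and Pfkfb3 ended above 0, at 0.03, 0.06 and 0.05, beside Pfkp at 0.13. With 5 subsets in place of 6, the weighted count was also 7 and the median −0.27. Arg1 itself stood at 1460 CPM in WT against 229 in KO phagocytes. Weighting therefore cannot tell the mix of kinds from the Arg1 level per cell. The subset of 11 KO cells led by Ccl8 or Vcam1 entered the 6-subset weighting at 1.94%.

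**Figure D2:**
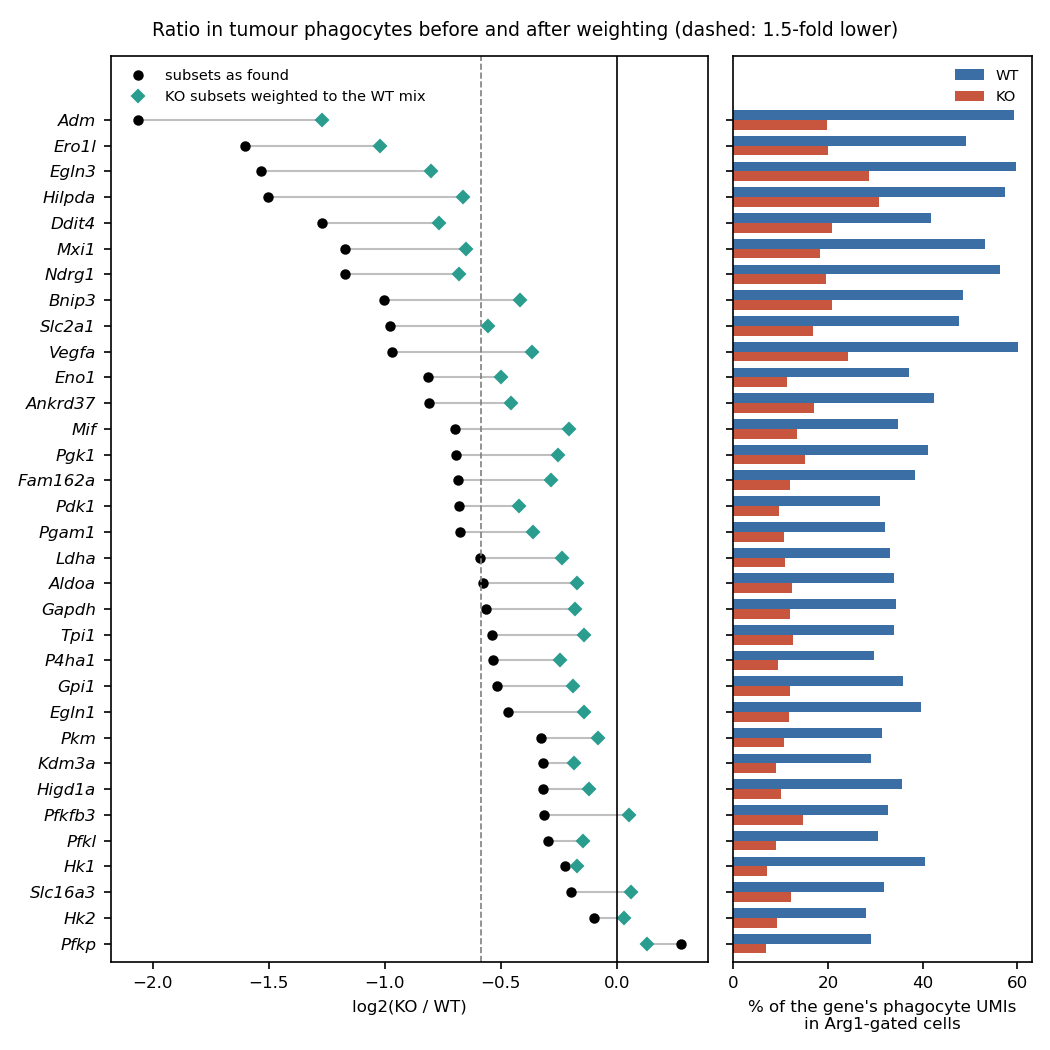
Left, log2 KO over WT of the 33 measured members in tumour phagocytes, with subsets as found (black circles) and with the KO subsets weighted to the WT mix (green diamonds), and the 1.5-fold line dashed. Right, percent of each gene’s phagocyte UMIs that lay in Arg1 macrophages in WT (blue) and KO (red). Every diamond lies nearer to 0 than its circle, and 7 diamonds stay left of the dashed line.

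Within Arg1 macrophages (247 WT and 51 KO cells) 7 of 33 members were lower, where 7.11% of all genes were, and 0 higher, where 9.83% were. Ero1l had 1126 CPM in WT against 564 in KO (−0.997 [−1.14, −0.85]). Adm had 61.3 CPM in WT against 18.3 in KO from 237 and 14 UMIs (−1.74 [−2.63, −0.97]). The hexokinase Hk1 had 124 CPM in WT against 70.7 in KO (−0.82 [−1.25, −0.41]). Mxi1, Ndrg1, Egln3 and Eno1 were the others, from −0.80 to −0.62. Hilpda, with 1270 CPM in WT against 900.3 in KO (−0.50 [−0.61, −0.38]), Vegfa (−0.37) and Slc2a1 (−0.57) lay short of the fold within this subset, and Pfkfb3 lay above 0, at 0.44 [0.21, 0.67]. The 2 libraries' Arg1 macrophages were not alike in their markers. Arg1 itself stood at 7070 CPM in WT against 3730 in KO, macrophage markers at 5990 and 9220 CPM, platelet markers at 397 and 52.3 CPM and NK cell markers at 3.88 and 72.0 CPM, and their part in the result was not tested. Arg1 macrophages had more Slc2a1 than C1q macrophages in both libraries, with 572 and 385 CPM in Arg1 macrophages and 133 and 117 CPM in C1q macrophages of WT and KO.

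In Cxcl9 macrophages (58 WT and 246 KO cells) 6 of 32 members were lower, where 5.3% of all genes were, and 0 higher, where 6.55% were. Ero1l had 324 CPM in WT against 124 in KO (−1.38 [−1.57, −1.19]). Hilpda had 206 CPM in WT against 94.1 in KO (−1.13 [−1.37, −0.89]). Also lower were Ddit4, Mxi1, Pdk1 and Ndrg1, from −1.16 to −0.60. Of the 5 subsets, neutrophil markers differed most in this one, at 1850 CPM in WT against 144 in KO. With that share subtracted, 5 members were lower and 1 higher, Ero1l stood at −1.21 and Hilpda at −0.54. In C1q macrophages (391 WT and 122 KO cells) 4 of 32 members were lower, where 8.31% of all genes were, and 0 higher, where 7.53% were. These were Ddit4, Hilpda, Ero1l and Egln3, from −0.94 to −0.70, and the median of all measured members was −0.04. The C1q count lies near the share of all genes, and was 10 at equal weight for each cell, 9 after thinning each cell to 2000 UMIs and 2 under the stricter gate. Median depth was 15927 UMIs in WT and 18965 in KO C1q cells.

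Classical monocytes (367 WT and 405 KO cells) had the largest count of the 5 subsets: 19 of 32 members were lower, where 5.12% of all genes were, and 0 higher, where 6.76% were, with a median of −0.63. Ero1l had 357 CPM in WT against 131 in KO (−1.45 [−1.57, −1.33]). Egln3 had 109.8 CPM in WT against 43.9 in KO (−1.32 [−1.54, −1.11]). Slc2a1 had 201 CPM in WT against 104 in KO (−0.95 [−1.09, −0.81]). Of the glycolysis members 8 of 15 were lower, among them Aldoa (−0.63), Tpi1 (−0.59) and Slc16a3 (−0.65), which had lain short of the fold in the pooled cells. The other lower members were Ddit4, Hilpda, Mxi1, Ankrd37, Bnip3, Eno1, Ndrg1, Vegfa, Mif, Pgam1, Pdk1, Pgk1 and Ldha, from −1.16 to −0.60. Summed macrophage markers were 3180 CPM in WT against 4050 in KO monocytes, and monocyte markers 6510 and 9280 CPM. With 5 subsets, leaving out the gate on the macrophage list, 11 of 32 were lower. In non-classical monocytes (140 and 139 cells) 11 of 24 measured members were lower, where 5.47% of all genes were, and 0 higher, where 4.39% were. Ddit4 had 129.5 CPM in WT against 43.5 in KO (−1.57 [−2.05, −1.12]). Ero1l had 143 CPM in WT against 49.8 in KO (−1.52 [−1.96, −1.10]). The other lower members were Bnip3, Slc2a1, Pgam1, Pfkl, Aldoa, Mif, Tpi1, P4ha1 and Eno1, from −1.35 to −0.59. After thinning 7 were lower and Pfkl stood at 0.06. Neutrophil markers stood at 1070 CPM in WT against 612 in KO non-classical monocytes, and Hilpda, short of the fold at −0.58, stood at −0.04 with that share subtracted.

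Ero1l was lower in all 5 compared subsets, and Ddit4 in 4 of 5, with −0.37 in Arg1 macrophages. Hilpda was past the fold in 3 of 5, Egln3 in 3 of the 4 subsets where it was measured, and Vegfa in classical monocytes alone of the 4 where it was measured. Subsets also differed in level within a library. In WT, Ero1l ranged from 143 CPM in non-classical monocytes through 256 in C1q macrophages, 324 in Cxcl9 macrophages and 357 in classical monocytes to 1126 in Arg1 macrophages. In KO the order from low to high was 49.8 CPM in non-classical monocytes, 124 in Cxcl9 macrophages, 131 in classical monocytes, 149.6 in C1q macrophages and 564 in Arg1 macrophages. The Arg1 subset was thus the highest in both libraries.

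Tumour neutrophils (834 WT and 103 KO cells) had the highest mean of hypoxia UMIs per cell, at equal depth, among the compared WT tumour classes (values further on). In KO, 16 of 32 members were lower, where 14.4% of all genes were, and 0 higher, where 19.8% were, with a median of −0.61 beside 0.10 for all genes. Vegfa had 331 CPM in WT against 131 in KO (−1.33 [−1.77, −0.93]). Pfkfb3 had 339 CPM in WT against 126 in KO (−1.43 [−1.88, −1.01]). Egln3 had 679.6 CPM in WT against 278 in KO (−1.29 [−1.58, −1.01]). Hilpda had 2784 CPM in WT against 1531 in KO (−0.86 [−0.99, −0.74]). The enzyme members Pfkl (−1.05), Hk2 (−0.76), Ldha (−0.72) and Pgk1 (−0.66) were lower too. Hk2 and Pfkfb3 had lain short of the fold in phagocytes. The other lower members were Ero1l, Bnip3, Pdk1, Kdm3a, Higd1a, P4ha1, Slc2a1 and Ddit4, from −0.87 to −0.65. Gpi1 (−0.03), Pkm (−0.07) and Mif (−0.07) lay near 0. Ankrd37 went the other way, at 196 CPM in WT against 268 in KO (0.45 [0.13, 0.75]). Median depth was 3658.5 and 3572 UMIs. The median mitochondrial share was 1.35% in WT and 0.343% in KO neutrophils, and its part in the result was not tested. Immature neutrophil markers stood at 782 CPM in WT against 6820 in KO and granulocyte progenitor markers at 774 against 15.8 CPM. Among mature cells alone (819 WT and 99 KO), where these sums were 658 and 684 CPM and 3.86 and 16.9 CPM, 15 of 32 members were lower, where 14.0% of all genes were, and 0 higher, where 20.9% were, with a median of −0.55. NK cell markers stood at 10.6 and 87.3 CPM in the mature cells, and their part was not tested.

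Type 2 and migratory dendritic cells and B cells also had over 10 lower members each. In type 2 dendritic cells (78 and 79 cells) 13 of 25 were lower, where 4.88% of all genes were, and 0 higher, where 7.55% were. Hilpda had 86.2 CPM in WT against 15.97 in KO from 141 and 23 UMIs (−2.43 [−3.14, −1.79]). Ddit4 had 120.4 CPM in WT against 31.2 in KO (−1.95 [−2.45, −1.47]). Slc16a3 had 92.3 CPM in WT against 42.4 in KO (−1.12 [−1.58, −0.69]). The other lower members were Ero1l, Ndrg1, Bnip3, Slc2a1, Aldoa, Pgk1, Tpi1, Mif, Pgam1 and Gpi1, from −1.47 to −0.59, of which Ndrg1 stood at 0.17 after thinning. Pfkp was again above 0, at 0.56 [0.39, 0.74]. Neutrophil markers were scarce in these cells, 41.5 CPM in WT against 15.3 in KO, with 4 of 8 at 0 in each, and 13 members were also lower after their share was subtracted. Macrophage markers stood at 587 and 369 CPM, Arg1 at 91.6 and 0.694 CPM, Cxcl9 at 205 and 600 CPM and B cell markers at 37.3 and 3.47 CPM, and their part in the result was not tested. Median depth was 21424.5 UMIs in WT and 16802 in KO.

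Migratory dendritic cells (79 and 105 cells) had 14 of 21 lower, where 4.68% of all genes were, and 2 higher, where 7.05% were. Of the glycolysis members 9 of 12 were lower: Eno1 had 298 CPM in WT against 125 in KO (−1.25 [−1.51, −1.001]). Gapdh had 2416 CPM in WT against 1314 in KO (−0.88 [−0.96, −0.80]). Ldha had 387 CPM in WT against 197 in KO (−0.98 [−1.19, −0.77]). The other lower members were Ero1l, Fam162a, Bnip3, Mif, Egln1, Tpi1, Gpi1, Aldoa, Pgk1, Pgam1 and Pfkl, from −1.66 to −0.67. The 2 higher members both act at the phosphofructokinase step. Pfkfb3 had 283 CPM in WT against 465 in KO (0.72 [0.54, 0.90]). Pfkp had 105 CPM in WT against 174 in KO (0.73 [0.43, 1.04]). Under the stricter gate 9 of 16 were lower. Macrophage markers stood at 292 CPM in WT against 127 in KO, neutrophil markers at 47.8 and 8.34 CPM, T cell markers at 15.4 and 117 CPM and melanoma markers at 16.9 and 62.2 CPM. With the neutrophil share subtracted 14 members were lower, and the part of the other markers was not tested. Plasmacytoid dendritic cells (78 and 82 cells) had 4 of 16 lower, where 2.75% of all genes were, and 0 higher, where 5.33% were, led by Hilpda with 205 CPM in WT against 29.01 in KO from 175 and 30 UMIs (−2.82 [−3.43, −2.26]). The others were Ero1l, Eno1 and Tpi1, from −1.12 to −0.67. At equal weight for each cell 8 were lower, after thinning 9, and under the stricter gate 2 of 12. Thinned plasmacytoid cells had a mean of 3.49 UMIs of the hypoxia members in WT and 1.51 in KO. Their median was 1 in both libraries, and the 90th percentile was 4 in WT and 3 in KO. Neutrophil markers stood at 198 CPM in WT against 23.2 in KO, and Hilpda at −2.79 with that share subtracted.

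Tumour B cells (160 and 79 cells) had 11 of 16 measured members lower, where 9.34% of all genes were, and 0 higher, where 5.23% were, with the lowest median of the compared classes, −1.01. Ero1l had 205 CPM in WT against 49.8 in KO (−2.04 [−2.68, −1.45]). Hilpda had 278 CPM in WT against 77.4 in KO (−1.84 [−2.35, −1.37]). Eno1 had 286 CPM in WT against 142 in KO (−1.01 [−1.40, −0.64]). The other lower members were Pfkp, Bnip3, Pgk1, Mif, Tpi1, Ldha, Higd1a and Pgam1, from −1.20 to −0.67. B cells carried many neutrophil markers, 1750 CPM in WT against 606 in KO. With that share subtracted, 10 were lower and Ero1l stood at −1.94, while under the stricter gate 4 of 13 were lower.

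In each tumour T and NK cell class compared, at most 4 members were lower. In CD8 T cells, the class with the most KO cells (456 WT and 1342 KO), 2 of 33 members were lower, Egln3 and Pdk1, where 3.69% of all genes were, and 0 higher, where 3.86% were. These counts lie near the shares of all genes, and the median was 0.05. Gapdh had 2087 CPM in WT against 2046 in KO (−0.03 [−0.06, −0.001]). Ldha had 716 CPM in WT against 728 in KO (0.03 [−0.02, 0.07]). Slc2a1 had 25.9 CPM in WT against 28.5 in KO (0.14 [−0.11, 0.39]). Hilpda, past the fold in pooled phagocytes and in neutrophils, had 34.9 CPM in WT against 51.5 in KO here (0.56 [0.35, 0.77]). With the neutrophil share subtracted, whose markers stood at 119 CPM in WT against 12.4 in KO, Hilpda stood at 0.77 and 1 member counted as higher. Egln3 had 52 and 80 UMIs and a ratio of −1.05 [−1.58, −0.52], which was 0.02 after thinning.

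CD4 T cells that lacked Foxp3 UMIs (71 and 143 cells) were the class with the most higher members: 9 of 19 were higher in KO, where 17.9% of all genes were, and 2 lower, where 7.62% were. The higher members were mostly enzymes, 7 of 12 glycolysis members. Gapdh had 796 CPM in WT against 1551 in KO (0.96 [0.80, 1.13]). Ldha had 396 CPM in WT against 614 in KO (0.63 [0.39, 0.88]). Pgk1 had 172 CPM in WT against 308 in KO (0.84 [0.48, 1.22]). The other higher members were Hk1, Fam162a, Tpi1, Pfkp, Pgam1 and Mif, from 1.36 to 0.64. The lower ones were Pdk1 and Ddit4. Pdk1 had 126 CPM in WT against 39.2 in KO (−1.68 [−2.26, −1.11]). Ddit4 had 100.1 CPM in WT against 56.2 in KO (−0.83 [−1.39, −0.26]). Markers of other cell types also differed in this class. Macrophage markers stood at 79.2 CPM in WT, with 4 of 10 at 0, against 448 in KO, monocyte markers at 300 and 628 CPM, NK cell markers at 4.66 and 112 CPM, and neutrophil markers at 128 and 14.0 CPM. Depth was 6243 UMIs in WT and 7912 in KO. The part of these in the result was not tested, and the difference between the enzymes here and in phagocytes was not tested.

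Regulatory T cells (97 and 191 cells) had 4 of 26 lower, where 5.49% of all genes were, and 0 higher, where 4.19% were. These were Ndrg1 at 90.04 CPM in WT against 37.3 in KO (−1.27 [−1.75, −0.79]), Ddit4 (−1.01), Slc2a1 (−0.75) and Bnip3 (−0.66). The median of the 26 was −0.22, and 21 of them lay below 0. NK cells (136 and 706 cells) had 4 of 28 lower, where 6.6% of all genes were, and 1 higher, where 4.83% were. Hilpda had 74.5 CPM in WT against 32.7 in KO (−1.19 [−1.61, −0.76]), with Mxi1, Ndrg1 and Kdm3a the other lower members. The higher member was Vegfa, with 69.98 CPM in WT against 118 in KO from 62 and 623 UMIs (0.76 [0.38, 1.16]). The median in NK cells was 0.09. Neutrophil markers stood at 164 CPM in WT against 16.5 in KO NK cells. With that share subtracted, 4 members were lower and 1 higher, and Hilpda stood at −1.07.

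**Figure D3:**
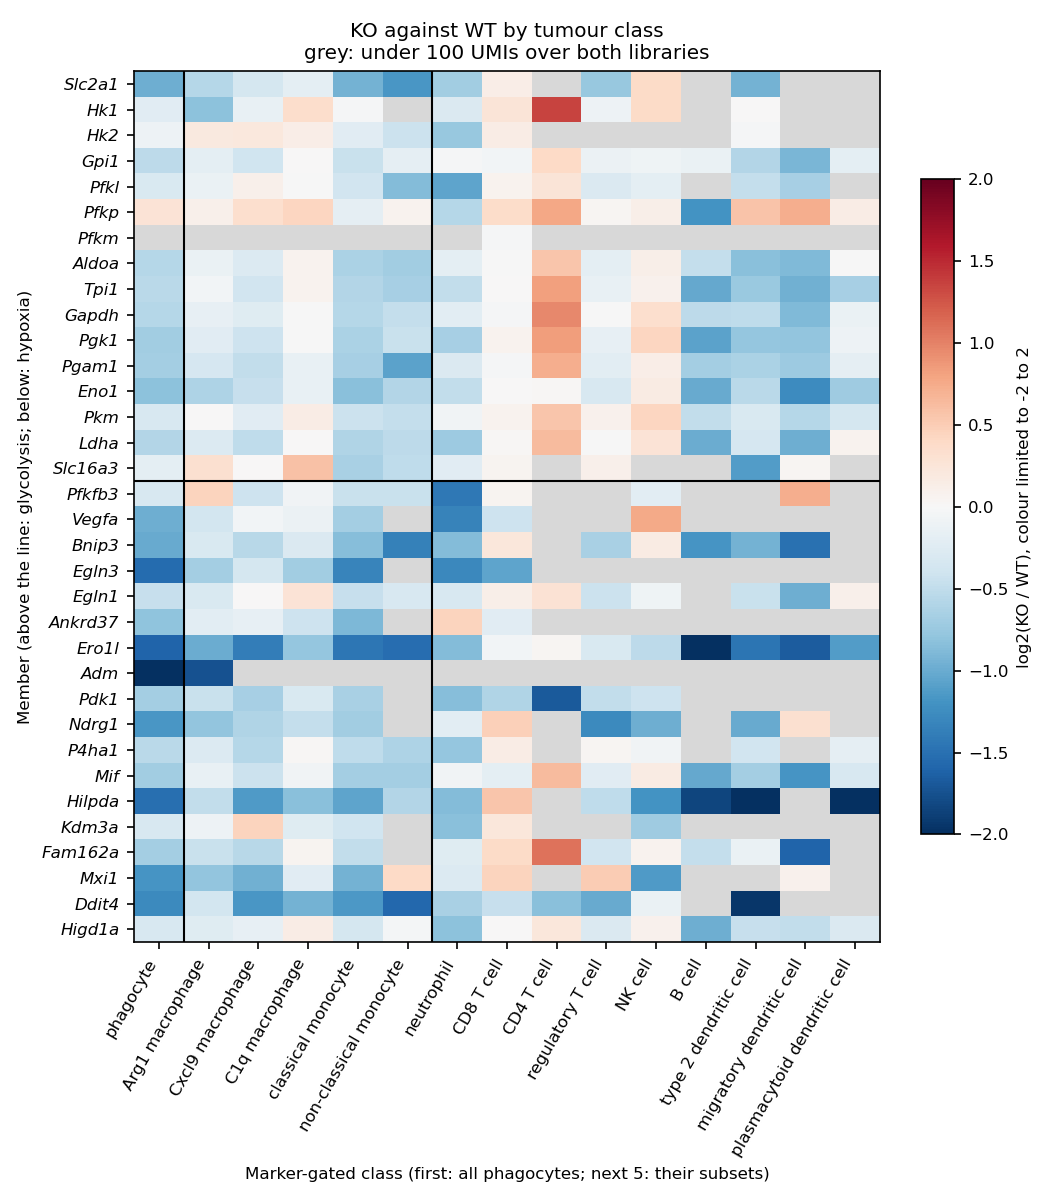
log2 KO over WT of each member (rows, glycolysis above the black line and hypoxia below it) in each compared tumour class (columns), blue for lower and red for higher in KO, limited to −2 to 2, and grey under 100 UMIs. Blue prevails in most myeloid columns and in the B cell column, while C1q macrophages are mixed, with 19 of 32 members below 0. CD8 T cells are pale, and regulatory T cells have 21 of 26 below 0. The CD4 T cell column has 9 members past the fold in red.

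For a view by cell, each cell was thinned to 2000 UMIs and the UMIs of the 18 hypoxia members were summed. Phagocytes had a mean of 8.18 in WT and 4.12 in KO, and 2.47% of KO cells lay above the WT 90th percentile of 22. The medians were 4 and 2, so the middle of the distribution and its top both differed. Arg1 macrophages had means of 18.1 and 13.7, classical monocytes of 6.43 and 3.68, and neutrophils of 22.5 and 14.4. CD8 T cells had 2.31 and 2.35, and spleen classical monocytes 1.18 and 1.14. The 16 glycolysis members summed to a mean of 23.3 in WT and 15.3 in KO phagocytes, 9.83 and 10.0 in CD8 T cells, and 5.37 and 8.86 in CD4 T cells. Thinning left out 50 of 1232 WT and 42 of 974 KO phagocytes, and 154 of 834 WT and 7 of 103 KO neutrophils.

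**Figure D4:**
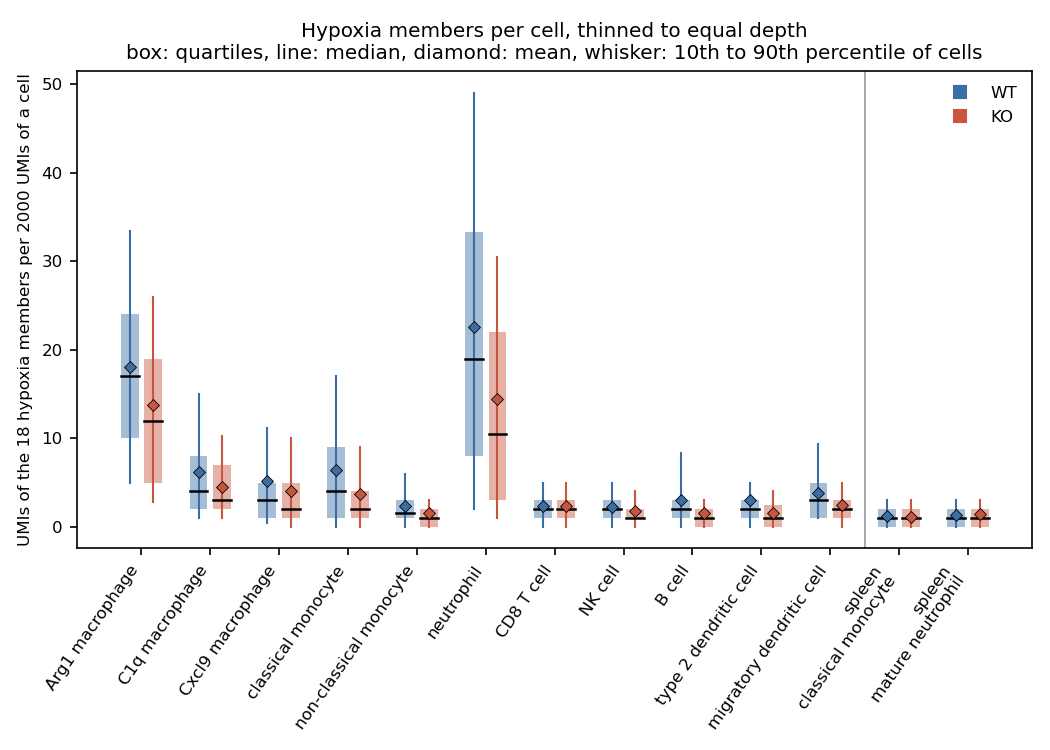
UMIs of the 18 hypoxia members per cell, each cell thinned to 2000 UMIs, by class and genotype (blue WT, red KO), with quartile boxes, median lines, mean diamonds and whiskers from the 10th to the 90th percentile of cells. Means are 18.1 in WT and 13.7 in KO Arg1 macrophages and 22.5 and 14.4 in neutrophils, and both spleen classes lie below 2.

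In the spleen libraries few members passed the fold in a compared class, though most phagocyte ratios lay below 0. In pooled spleen phagocytes the median was −0.13, beside −0.009 over all genes. Below 0 lay 23 of 31 members, 17 with intervals clear of it, while 4 had intervals above it. Classical monocytes had 21 of 29 below 0, 13 clear of it, and 4 intervals above. Non-classical monocytes had 24 of 28 below 0, 8 clear of it, and 1 interval above. Classical monocytes (1453 WT and 811 KO cells) had 2 of 29 lower, where 2.15% of all genes were, and 0 higher, where 2.06% were. These were Ddit4 and Pdk1. Ddit4 had 55.02 CPM in WT against 32.01 in KO (−0.78 [−0.97, −0.59]). Pdk1 had 16.5 CPM in WT against 10.1 in KO (−0.71 [−1.06, −0.38]). Eno1 came next, at 284 CPM in WT against 195 in KO (−0.54 [−0.62, −0.47]). Ero1l, lower in each tumour phagocyte subset compared, had 33.3 CPM in WT against 37.2 in KO (0.16 [−0.03, 0.35]). Mature neutrophils (2233 and 1433 cells) had 1 of 30 lower, Ddit4, where 3.23% of all genes were, and 2 higher, where 1.52% were. Ddit4 had 16.5 CPM in WT against 10.4 in KO (−0.67 [−1.23, −0.12]). The higher ones were Vegfa and Fam162a. Vegfa had 13.2 CPM in WT against 20.6 in KO (0.64 [0.17, 1.10]). Fam162a had 10.9 CPM in WT against 17.4 in KO (0.67 [0.16, 1.18]). The count of 1 lower member lies near the share of all genes. In the other 5 compared spleen classes the median over the members lay between −0.22 and −0.01. With immature neutrophils included, of which the spleen libraries held 48 and 360, 7 of 31 members were lower, where 15.6% of all genes were, and 4 higher, where 17.8% were.

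Set against spleen cells of the same class, tumour cells had more of most measured members in both genotypes. Organ, sort gate and library cannot be told apart here. In WT classical monocytes 28 of 32 members were higher in the tumour, where 11.8% of all genes were, with a median of 1.96. Vegfa had 0.688 CPM in the spleen and 146 CPM in the tumour (log2 7.73 [6.97, 8.61]). Hilpda had 2.65 CPM in the spleen and 267 CPM in the tumour (log2 6.65 [6.26, 7.07]). Slc2a1 had 19.9 CPM in the spleen and 201 CPM in the tumour (log2 3.34 [3.17, 3.51]). Ddit4 stood apart, with 55.02 CPM in the spleen and 48.3 CPM in the tumour (log2 −0.19 [−0.39, 0.01]). In KO monocytes 25 of 32 were higher, where 10.9% of all genes were, with a median of 1.54. KO Hilpda had 2.70 CPM in the spleen and 129 CPM in the tumour (log2 5.57 [5.00, 6.21]). Below 0 in KO monocytes were Ddit4 (−0.56 [−0.87, −0.26]) and Ndrg1 (−0.29 [−0.45, −0.13]).

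WT mature neutrophils had 29 of 32 members higher in the tumour, where 21.4% of all genes were, with a median of 3.32, and KO ones 26 of 30, where 23.2% were, with a median of 2.44. Hilpda was all but absent from spleen neutrophils, with 2 UMIs in WT and 1 in KO, and had 0.327 CPM in the spleen and 2824 CPM in the tumour (log2 13.08 [11.22, 16.12]) in WT. Ero1l had 25.6 CPM in the spleen and 1779 CPM in the tumour (log2 6.12 [5.89, 6.35]) in WT. Gpi1, which turns glucose phosphate into fructose phosphate, hardly differed between organs, with 523 CPM in the spleen and 604 CPM in the tumour (log2 0.21 [0.13, 0.29]) in WT. Mxi1 lay below 0 in WT (−0.12 [−0.28, 0.04]) and in KO neutrophils (−0.68 [−1.17, −0.23]). Ndrg1 stood at 0.17 [−0.02, 0.36] in WT and at −0.34 [−0.87, 0.15] in KO.

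Lymphoid and dendritic classes showed the same direction for most measured members, with fewer members measured. Higher in the WT tumour were 14 of 26 members in NK cells, where 8.84% of all genes were, 15 of 19 in B cells, where 9.91% were, and 20 of 26 in type 2 dendritic cells, where 11.9% were. In the KO the counts were 16 of 29 in NK cells, where 11.4% of all genes were, 8 of 14 in B cells, where 8.1% were, and 13 of 17 in type 2 dendritic cells, where 17.8% were. Non-classical monocytes had 17 of 29 in WT, where 7.81% of all genes were, and 11 of 25 in KO, where 7.93% were. The measured hypoxia members did not share this direction in every KO class. Their median was −0.415 over 4 measured in KO B cells and −0.014 over 11 measured in KO non-classical monocytes. The glycolysis medians there were 0.965 and 0.731, and those of all genes −0.239 and −0.207. Other hypoxia members fell under 100 UMIs in these classes. Among them, Hilpda stood at 3.70 [2.72, 4.81] and Bnip3 at 3.575 [2.22, 5.17] in KO B cells, while Pfkfb3, Adm and Pdk1 lay below 0. In KO non-classical monocytes Hilpda stood at 4.345 [3.43, 5.40]. The comparisons of organs use the same tumour cells as those of genotypes, so the values are not independent.

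**Figure D5:**
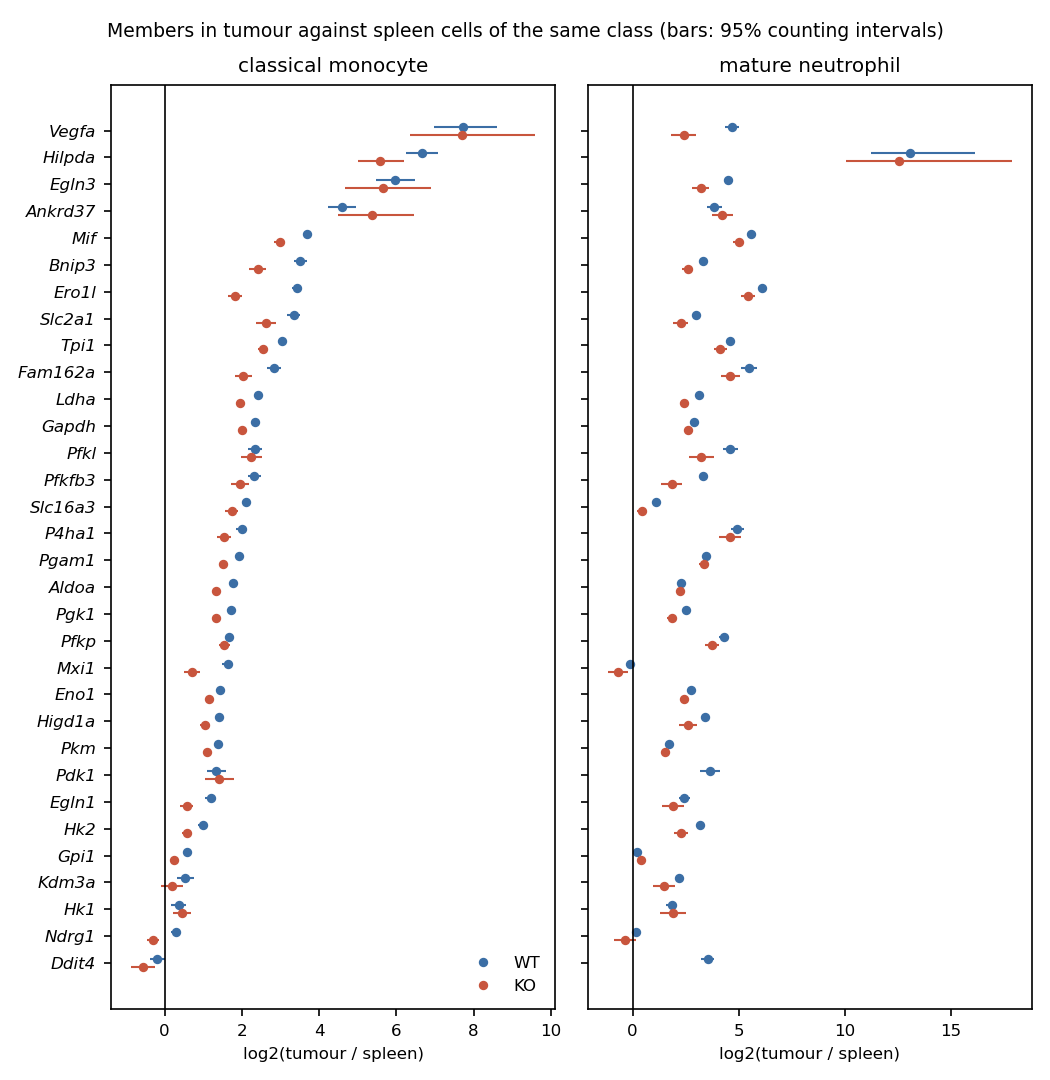
log2 tumour over spleen of the measured members in classical monocytes (left) and mature neutrophils (right), WT in blue and KO in red, with exact 95% counting intervals. Most points lie right of 0 in both genotypes, Vegfa farthest in monocytes and Hilpda in neutrophils. Ddit4 lies left of 0 in monocytes and Mxi1 in neutrophils, as does Ndrg1 in KO cells of both classes.

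A further list of 60 genes, none of them a member, was also read in tumour phagocytes. It held HIF factors and their regulators, further hypoxia genes, other genes of glucose use and the pentose phosphate pathway. Of its 44 measured genes, 6 were lower and 5 higher, with a median of −0.04. Over all genes in this comparison 9.17% were lower and 8.57% higher. The counts of the whole list thus lie near the background, and single genes are given as values only. The 6 lower genes all came from the hypoxia part of the list. Of the 5 higher genes, Upp1 came from that part and the others from glucose use. The parts were not set against the background one by one. Hif1a, Arnt, Ldhb, Hk3, Pdk3, Pgd and G6pdx are named here after their values were seen. The HIF factor gene Hif1a had 290.4 CPM in WT against 290.5 in KO (0.00 [−0.06, 0.06]). Its partner Arnt had 38.4 CPM in WT against 34.8 in KO (−0.14 [−0.31, 0.02]). Both lay short of the fold. Lower was P4ha2, a collagen hydroxylase subunit, with 8.98 CPM in WT against 2.75 in KO (−1.71 [−2.24, −1.21]). The glucose transporter gene Slc2a3 had 18.4 CPM in WT against 6.45 in KO (−1.51 [−1.86, −1.18]). The HIF-induced repressor gene Bhlhe40 had 187 CPM in WT against 97.03 in KO (−0.95 [−1.04, −0.86]). Car9 (−0.85), Gbe1 (−0.81) and Gys1 (−0.68) were lower as well. Gbe1 and Gys1 encode the branching enzyme and the synthase of glycogen.

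Higher was Upp1, a uridine phosphorylase, with 45.4 CPM in WT against 86.7 in KO (0.93 [0.81, 1.06]). The transporter gene Slc2a6 had 10.2 CPM in WT against 18.1 in KO (0.82 [0.55, 1.09]). The hexokinase gene Hk3 had 68.5 CPM in WT against 108 in KO (0.66 [0.55, 0.76]). Ldhb (0.67) and Pdk3 (0.64) were higher as well. Of the 7 pentose phosphate pathway genes on the list, 0 passed the fold in phagocytes, from −0.27 for Pgd to 0.29 for G6pdx. In tumour neutrophils Hif1a itself was lower, with 463 CPM in WT against 134 in KO (−1.79 [−2.22, −1.39]), and of 26 measured further genes 8 were lower and 6 higher, where 14.4% and 19.8% of all genes were.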

How the data were processed

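Expression of single cells was measured in 4 droplet libraries (10x Chromium 3′ v3.1, 16000 cells loaded per lane). The deposited matrices hold raw UMI counts per gene and cell. The submitters' processing notes name Cell Ranger 3.1, Seurat 3.1 and 3.1.4, and the builds mm10 and GRCm38, while Cell Ranger 6.0.0 made the matrices per the file headers. Equal replicate numbers carry no pairing, since each group is 1 library.

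Cells under 200 genes or 500 UMIs, or over 10% mitochondrial UMIs, were left out (Python 3.11.15, numpy 2.4.6, pandas 2.3.3, scipy 1.17.1). Each marker's log level was divided by its 99.8th percentile over the organ's cells and averaged per marker list. A cell took the class of its leading list at a score of at least 0.15. Cells with a second lineage within 1.5 times, 6.315% to 9.206% per library, were left out as possible doublets. The stricter gate asked for 2.5 times. T cells were divided by UMIs of Cd8a, Cd8b1, Cd4 and Foxp3, phagocytes and neutrophils by their leading list. Classes with at least 50 cells in each library were compared. These gate rules and limits were set after the data had been seen. UMIs were summed per class and scaled to CPM of its total.

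Ratios have exact conditional binomial intervals, and levels exact Poisson intervals, both at 95% and for counting error only. The ratio and interval code was tested on simulated data. The neutrophil share of a class is its summed neutrophil markers over their sum in the same library's neutrophils. Per-cell sums used cells thinned to 2000 UMIs. Members with values are those past 1.5-fold with 100 or more UMIs and an interval clear of 0 in a tumour class. The rest are given by range and count, and at most 8 further genes by size of ratio in phagocytes. The members, lists and shown classes were chosen with earlier results of these data known. Alternatives covered scaling, cell weight, depth, the fold, the UMI minimum, the mitochondrial limit, cells of 2 lineages and the gate. Those with 5 subsets, undivided spleen neutrophils, mature tumour neutrophils only and subtracted neutrophil RNA were chosen after seeing the data.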

Additional observations from a re-analysis of the deposited data

Results flagged for a closer look

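Vegfa, the vessel growth factor, differed in opposite directions between KO and WT neutrophils of the 2 organs. Its log2 ratio was −1.334 in tumour neutrophils and 0.636 in spleen mature neutrophils. The difference between the organs was not tested, since each value compares 1 library with 1 other, and tumour neutrophils were not divided by maturity in that ratio.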

How the results depend on the processing

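Each pair of libraries is 1 pool against 1 pool, so no replicate could be left out and no spread between mice is known. No paired analysis was possible because every group holds a single library. Counts of lower members in KO are given unless stated, and where no construction is named the cause was not tested. In pooled tumour phagocytes the count of 18 was 7 of 33 with the KO subsets weighted to the WT mix, and 7 of 33 with 5 subsets. A fold of 2, stricter by construction, gave 8 in phagocytes, 1 in Arg1, 3 in Cxcl9 and 0 in C1q macrophages, 4 in classical and 5 in non-classical monocytes and 4 in neutrophils. It gave 1 in CD8, 1 in CD4 and 2 in regulatory T cells, 2 in NK cells, 5 in type 2, 5 in migratory and 2 in plasmacytoid dendritic cells, 0 in spleen classical monocytes and 0 in spleen mature neutrophils. It left 2 higher members in CD4 T cells and 9 higher in WT tumour than spleen NK cells. A minimum of 300 UMIs, which measures fewer members, gave 3 of 26 in Cxcl9 macrophages, 6 of 12 in non-classical monocytes, 1 of 29 in CD8, 0 of 11 in CD4 and 1 of 14 in regulatory T cells, 0 of 16 in NK cells and 3 of 7 in B cells. It gave 6 of 12 in type 2, 9 of 15 in migratory and 0 of 6 in plasmacytoid dendritic cells and 0 of 20 in spleen mature neutrophils. Higher in WT tumour than spleen were then 8 of 16 in NK cells, 9 of 10 in B cells and 11 of 13 in type 2 dendritic cells. A minimum of 30 UMIs, which measures more, gave 1 higher of 34 in phagocytes (Pfkm), 21 of 31 lower in B cells, 11 of 27 in plasmacytoid dendritic cells, 4 of 32 in spleen classical monocytes, and 25 of 32 higher in WT tumour than spleen B cells. Equal weight for each cell gave 10 in C1q macrophages, 4 in CD8 T cells, 8 in plasmacytoid dendritic cells and 0 in spleen mature neutrophils. Thinning gave 9 in C1q macrophages, 7 in non-classical monocytes and 9 in plasmacytoid dendritic cells, and turned the sign of Pfkl in non-classical monocytes (0.056), Egln3 in CD8 T cells (0.021) and Ndrg1 in type 2 dendritic cells (0.167). The stricter gate gave 2 in C1q macrophages, 1 of 16 in CD4 T cells, 4 of 13 in B cells, 9 of 16 in migratory and 2 of 12 in plasmacytoid dendritic cells and 0 of 29 in spleen mature neutrophils. Centring on the median of all genes gave 1 in CD8 T cells, and a mitochondrial limit of 5% gave 1 in CD8 and 1 of 16 in CD4 T cells. With 5 subsets 11 of 32 were lower in classical monocytes, and with all neutrophils together 7 of 31 in the spleen. The other settings kept each count within 1.5 times. Of 150 ratios of single members, 0 turned sign at equal cell weight, under the stricter gate, with another class total or with cells of 2 lineages kept. Their sizes were less stable. Recorded as moved with the sign kept were 27 at equal cell weight, 37 under the stricter gate and 18 with cells of 2 lineages kept. With another class total 0 moved. After thinning 69 of 149 moved, and with the KO subsets weighted to the WT mix 18 of 18 did.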
